A study of Canis lupus familiaris with 36 samples.

Results

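The comparison described here is that of Ibrutinib alone with the solvent control after 24 h in CLBL-1 cells, and its members are 6 of the 36 RNA sequencing libraries of the series, 3 of Ibr 24 h and 3 of DMSO 24 h. They were chosen by treatment and time only, and every library of these 2 groups was used. CLBL-1 is a line grown from one dog with B-cell lymphoma, so all groups share the genotype of 1 tumour and replicates 1, 2 and 3 are cultures of 3 passages of that line. The Ibr group received 1 µM Ibrutinib, an inhibitor that binds Bruton's tyrosine kinase (BTK) irreversibly. The DMSO group received no inhibitor. By the methods of the study its medium held as much dimethyl sulfoxide as the medium with the combined inhibitors. They do not give the solvent content of the medium with Ibr alone. If it was lower, solvent and inhibitor differ together between DMSO and Ibr alone and cannot be told apart. The other groups of the series received 5 µM AS-605240 (AS), an inhibitor of phosphoinositide 3-kinase gamma, or Ibr + AS, and all 4 treatments were also sampled at 48 h and 72 h.

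In B cells, an antigen receptor that binds its ligand activates the kinases LYN and SYK, which recruit BTK to the membrane, where BTK activates phospholipase C gamma 2. Calcium, protein kinase C, MAP kinases and NF-kB carry the signal on, and within minutes to hours it switches on immediate early genes such as EGR1 and changes the genes of growth, metabolism and migration. In B-cell lymphomas this pathway can run without antigen, and Ibrutinib is used in people because it stops the signal at BTK.

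Reads counted on genes ranged from 10910175 to 14703839 in the DMSO 24 h libraries and from 10041386 to 12836119 in the Ibr 24 h libraries. The 50 most abundant genes took 16.7% to 21% of the reads. The unit of level is CPM, the count of a gene divided by the TMM-scaled library size, and the scaling factors of the 6 libraries lay between 0.971 and 1.04. The log2 fold change (log2 FC) is that of Ibr over DMSO with its standard error (SE), from a fit of 35 libraries with passage as a term. A differentially expressed gene (DEG) had a Benjamini-Hochberg adjusted p of at most 0.05 in edgeR and an absolute log2 FC above 1. For smaller changes, "rose" and "fell" mean an adjusted p of at most 0.05 at any fold. Of the 18670 genes tested, 1068 could be given a symbol. BTK, LYN, SYK and PLCG2 are not among them and were not analysed here.

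The 5 B-lineage markers that could be paired (DLA-DRA, DLA-DOA, DLA-DQA1, TNFRSF13C and TCF4) summed to between 3560 and 3630 CPM with DMSO and between 4330 and 4860 CPM with Ibr. The 5 markers of T and NK cells (IL2RB, IL4, TCF7, CD226 and IFNG) summed to 0.132 to 0.178 CPM with DMSO and 0 to 0.155 CPM with Ibr, and IFNG had no read. The 5 markers of monocytes and macrophages summed to 320 to 334 CPM with DMSO and 386 to 425 CPM with Ibr, of which LYZ rose (log2 FC 0.81 ± 0.12 SE, adjusted p = 1.59e-05) and 4 did not pass the test. Nearly all of this sum came from NCF4, LYZ and LGALS1, with means over the 6 libraries of 185, 116 and 69.2 CPM. TREM2 had 0 to 1 reads and MPIG6B 0 to 4 in each library, so the sum does not show that such cells were present. The part of such markers in any result was not tested. As these are bulk samples, fewer cells of a kind and less RNA per cell cannot be told apart.

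After 24 h with Ibr, 210 genes were DEGs (1.12% of the genes tested), of which 163 were higher (0.873%) and 47 lower (0.252%). A further count without the fold limit gave 999 genes higher (5.35%) and 705 lower (3.78%), 1704 in all (9.13%). The median log2 FC over all genes tested was 0, and that of DEGs in absolute value 1.43. Of the DEGs, 208 changed in the same direction in all 3 passages and 205 had no overlap between the 3 Ibr and the 3 DMSO libraries. The DEGs were called from these same libraries, so both counts follow largely from the call and are no replication. Non-overlap alone was common, with 43.8% of the 10699 genes of at least 1 CPM showing it. In 23 DEGs, 17 of them higher with Ibr, one group had 3 reads or fewer in each library. Symbols were at hand for 11 DEGs, 8 higher and 3 lower. They make up 1.03% of the 1068 genes with a symbol. Most genes with a symbol have at least 1 CPM, and among all genes of that level 8.93% rose and 6.5% fell (15.4% in all), which is the background for the lists below. The lists were drawn up with earlier results of these data known, and some hold almost only genes with a symbol. Their counts are therefore descriptions and not those of independent gene sets.

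**Figure D1:**
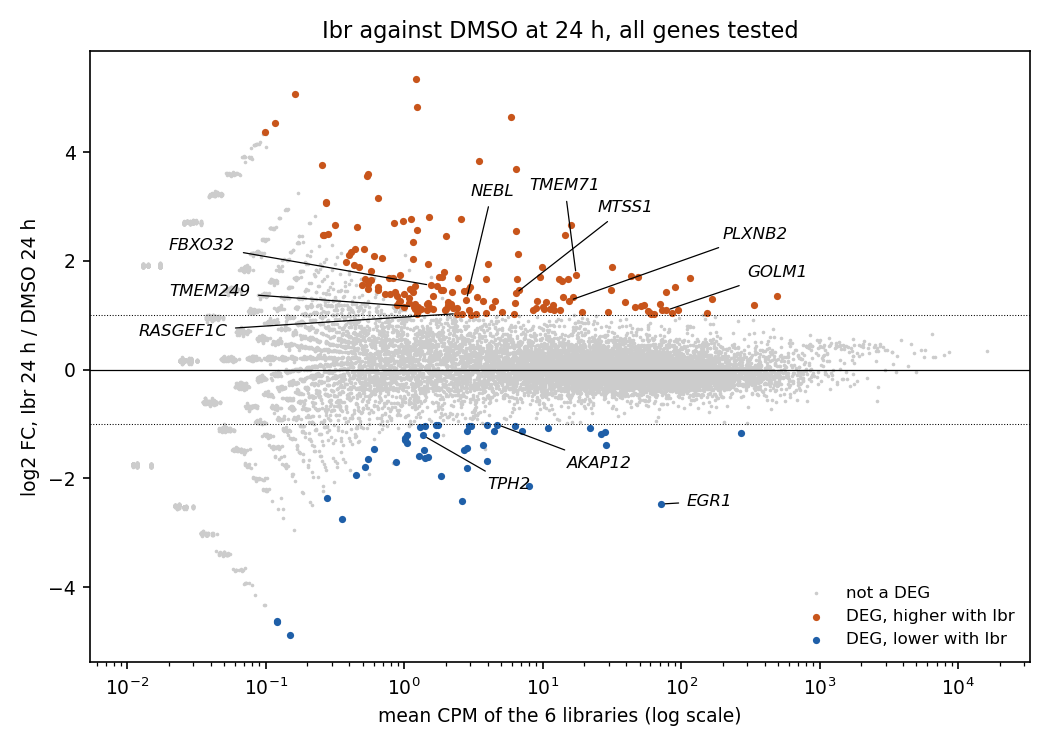
Mean level of each gene in the 6 libraries (CPM, log scale) against the log2 FC of Ibr over DMSO at 24 h, with the 163 higher DEGs in orange and the 47 lower DEGs in blue. Dotted lines mark a log2 FC of 1 and -1, and the 11 DEGs with a symbol are labelled. EGR1 stands apart as a well expressed gene with a log2 FC of -2.47, and 156 of the 210 DEGs have a mean of at least 1 CPM.

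Among DEGs with a symbol, the largest fall was that of the immediate early gene EGR1. EGR1, a zinc finger transcription factor switched on by antigen receptor and MAP kinase signals, had 136, 111 and 109 CPM in DMSO replicates 1, 2 and 3 and 44.9, 15.9 and 12.4 CPM in the Ibr libraries. The groups did not overlap, and the Ibr library of replicate 1 stood well above the other two. Its level was 5.55-fold lower with Ibr (log2 FC -2.47 ± 0.56 SE, adjusted p = 0.00537). The log2 FC of EGR1 stayed between -2.92 and -2.25 over 10 other settings, but its call was lost in 3 of them: adjusted p was 0.0697 without the passage block, 0.113 when only the 6 libraries were fitted and 0.143 without replicate 2.

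NAB2, a corepressor that binds EGR proteins and is itself an EGR1 target, moved the same way as EGR1. It had 14.9, 15.2 and 19.7 CPM with DMSO and 8.45, 8.2 and 9.75 CPM with Ibr, without overlap. It fell with a log2 FC of -0.91 ± 0.14 SE (adjusted p = 4.35e-07). SOD2, the mitochondrial superoxide dismutase and an NF-kB target, fell as well, from 115 ± 2.76 CPM to 89.2 ± 6.34 CPM (SD, n = 3 each, log2 FC -0.36 ± 0.09 SE, adjusted p = 0.00455). Other members went up. IRF1, a transcription factor of the interferon response, had 34.6, 36.3 and 37.3 CPM with DMSO and 61.7, 57.7 and 62.1 CPM with Ibr, and rose with a log2 FC of 0.75 ± 0.1 SE (adjusted p = 1.27e-08). MYC, which drives growth and division, rose from 136 ± 17.4 to 174 ± 8.47 CPM (SD, n = 3 each, log2 FC 0.35 ± 0.1 SE, adjusted p = 0.00944). In the list of immediate early and NF-kB genes, 14 of 29 had a symbol, of which 2 rose, 3 fell and 9 did not pass, with a median log2 FC of 0.01. FOS, FOSB, JUN, JUNB, EGR2, EGR3, IER2 and NR4A1 could not be paired. Without replicate 1, MYC and SOD2 no longer passed (adjusted p = 0.142 and 0.1). Among the 9, TNF, which had a log2 FC of -0.15, and TNFAIP3, the NF-kB feedback inhibitor A20 with a log2 FC of 0.08, had adjusted p of 0.904 and 0.796. IER3, KLF10 and TRIB1 were also among them (log2 FC -0.26, 0.48 and -0.08, adjusted p = 0.589, 0.554 and 0.977).

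Few genes of the receptor pathway itself could be followed. Of 32 genes on the list, 10 had a symbol, of which 1 rose and none fell, with a median log2 FC of 0.17. The gene that rose was TNFRSF13C, the receptor for the B-cell survival factor BAFF. It had 103, 122 and 129 CPM with DMSO and 157, 159 and 174 CPM with Ibr, without overlap (log2 FC 0.47 ± 0.1 SE, adjusted p = 0.000308). NFATC1, a transcription factor activated by calcium through calcineurin, had 39.8 ± 1.5 CPM with DMSO and 48.5 ± 4.49 CPM with Ibr (SD, n = 3 each, adjusted p = 0.0627), and passed with DESeq2 (adjusted p = 0.0361) and filterByExpr (adjusted p = 0.0459). The phosphatase PTPRJ had a log2 FC of 0.38 ± 0.18 SE (adjusted p = 0.234, and 0.00681 without replicate 1), and the GTPase RAC2 one of 0.17 ± 0.09 SE (adjusted p = 0.288). INPP5D, the phosphatase SHIP-1 that removes the lipid made by PI3K, had a log2 FC of -0.1 (adjusted p = 0.703).

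Downstream, in the list for PI3K, AKT, mTOR and FOXO, 14 of 35 genes had a symbol, 2 rose, none fell and the median log2 FC was 0.07. FBXO32, the ubiquitin ligase subunit atrogin-1 and a known FOXO target, had 0.991, 0.727 and 0.624 CPM with DMSO and 2.2, 2.32 and 2.46 CPM with Ibr. All 3 Ibr libraries lay above all DMSO libraries, and the level was 2.92-fold higher (log2 FC 1.55 ± 0.34 SE, adjusted p = 0.000549). The other gene to rise was RPS6, a protein of the small ribosomal subunit (log2 FC 0.42 ± 0.1 SE, adjusted p = 0.00126, and 0.109 without replicate 3). CITED2, a transcriptional coregulator, missed the limit with a log2 FC of 0.33 ± 0.11 SE (adjusted p = 0.0509) but passed with DESeq2 (adjusted p = 0.026), RLE factors (0.0469), filterByExpr (0.0316) and all 36 libraries (0.0399). TFEB, which drives lysosomal genes, had a log2 FC of 0.21 ± 0.09 SE (adjusted p = 0.138, and 0.0282 with DESeq2). PIK3R1, the regulatory subunit of PI3K, had 65 ± 1.17 CPM with DMSO and 62.9 ± 4.08 CPM with Ibr (SD, n = 3 each, adjusted p = 0.896), and its groups overlapped.

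**Figure D2:**
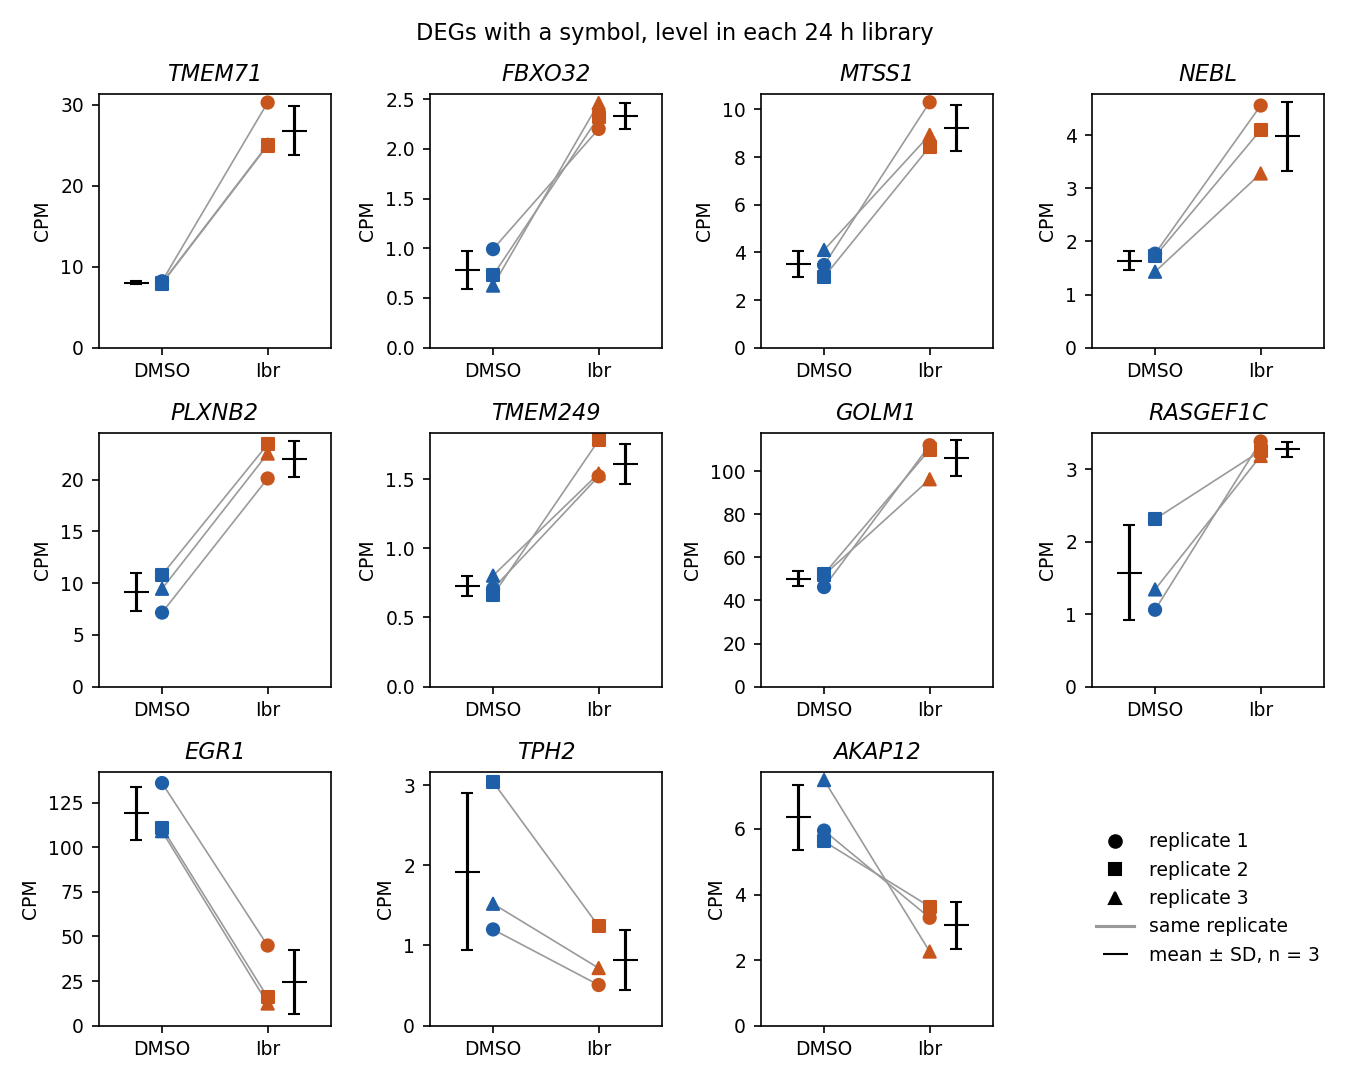
Level (CPM, linear axes from 0) of the 11 DEGs with a symbol in each of the 6 libraries, with DMSO in blue and Ibr in orange, a symbol shape per replicate and lines between libraries of the same replicate number. Black bars give mean ± SD (n = 3). All lines rise in the 8 higher genes and fall in the 3 lower ones, and the groups overlap in TPH2 only. One direction in all 3 passages was a condition for naming these genes.

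MTSS1 binds actin and bends membranes. It had 3.47, 2.97 and 4.1 CPM with DMSO and 10.3, 8.43 and 8.93 CPM with Ibr, which is 2.65-fold higher (log2 FC 1.4 ± 0.21 SE, adjusted p = 9.79e-06). NEBL, which codes for the actin-binding protein nebulette, had 1.77, 1.72 and 1.43 CPM with DMSO and 4.56, 4.1 and 3.28 CPM with Ibr, or 2.42-fold more (log2 FC 1.28 ± 0.25 SE, adjusted p = 8.57e-05). Neither gene had overlapping groups. AKAP12, a scaffold for protein kinase A at the membrane, fell from 5.95, 5.62 and 7.49 CPM to 3.29, 3.63 and 2.26 CPM, which is 2.01-fold lower (log2 FC -1.01 ± 0.21 SE, adjusted p = 0.000254). Its fold lies at the limit for a DEG: log2 FC was -0.99 with all 36 libraries and -0.77 without replicate 3. Of 28 genes of actin, adhesion and migration, 27 had a symbol, 4 rose, 1 fell and the median log2 FC was 0.03. CYTH4, an exchange factor for ARF GTPases, rose as well (log2 FC 0.4 ± 0.1 SE, adjusted p = 0.00307), but not without replicate 1 or 3 (adjusted p = 0.136 and 0.0706).

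PLXNB2, a plexin receptor for semaphorins, had 7.15, 10.8 and 9.45 CPM with DMSO and 20.1, 23.4 and 22.5 CPM with Ibr, and was 2.41-fold higher (log2 FC 1.27 ± 0.16 SE, adjusted p = 1.89e-08). GOLM1, a membrane protein of the Golgi, had 46.2, 52.2 and 51.8 CPM with DMSO and 112, 110 and 96.2 CPM with Ibr, and was 2.12-fold higher (log2 FC 1.09 ± 0.12 SE, adjusted p = 4.19e-09). In both genes the lowest Ibr library lay well above the highest DMSO library. TMEM71, which codes for a transmembrane protein, had 8.21, 7.93 and 8.02 CPM with DMSO and 30.3, 25 and 25.1 CPM with Ibr, the largest fold of the 11 in the upward direction at 3.33 (log2 FC 1.74 ± 0.19 SE, adjusted p = 2.81e-07). In a RefSeq annotation of another dog assembly TMEM71 overlaps PHF20L1. NEBL, RASGEF1C and AKAP12 overlap loci without a gene name there. The strand that was counted is not given in the sources used here, so reads of overlapping genes cannot be told apart.

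The calls of 3 further DEGs, all of low level, changed with the setting. RASGEF1C, of a family of Ras exchange factors, had 1.06, 2.31 and 1.34 CPM with DMSO and 3.38, 3.25 and 3.18 CPM with Ibr (log2 FC 1.03 ± 0.26 SE, adjusted p = 0.00449), and its log2 FC ranged from 0.78 to 1.46 over 10 other settings, with an adjusted p of 0.0589 without replicate 1. TMEM249, which overlaps SLC52A2 in RefSeq, had 0.708, 0.661 and 0.802 CPM with DMSO and 1.52, 1.78 and 1.54 CPM with Ibr (log2 FC 1.16 ± 0.39 SE, adjusted p = 0.0446). Its adjusted p passed 0.05 under 4 of 10 other settings, with a highest value of 0.196. TPH2, the tryptophan hydroxylase of serotonin synthesis, had 1.2, 3.04 and 1.52 CPM with DMSO and 0.507, 1.24 and 0.718 CPM with Ibr (log2 FC -1.21 ± 0.35 SE, adjusted p = 0.0145). The highest Ibr library, of replicate 2, lay just above the lowest DMSO library, of replicate 1, and without replicate 2 the adjusted p of TPH2 was 0.189.

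Of the DEGs without a symbol, those with the 2 highest and the 2 lowest log2 FC at a mean of at least 1 CPM are named by identifier. ENSCAFG00000042931 had 0 to 1 reads in the DMSO libraries and 20 to 36 in the Ibr libraries, at least 8.98-fold higher against a floor of 3 reads per library. ENSCAFG00000019993 had 0 to 2 reads with DMSO and 24 to 31 with Ibr, at least 8.9-fold higher against the same floor. Without replicate 2, its adjusted p was 0.0685. ENSCAFG00000006264 had 8.43, 12.9 and 17.6 CPM with DMSO and 2.2, 3.09 and 3.39 CPM with Ibr, and with a log2 FC of -2.14 ± 0.19 SE its adjusted p was 4.66e-17. ENSCAFG00000008418 fell from 4.39 ± 1.41 to 0.808 ± 0.127 CPM (SD, n = 3 each, log2 FC -2.41 ± 0.3 SE, adjusted p = 8.93e-10). All 4 were without overlap between groups.

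Genes of amino acid metabolism and tRNA charging were lower with Ibr. Of the 20 genes in the list of amino acid and ATF4 response genes, 10 had a symbol, 6 fell, none rose and all 10 had a log2 FC below 0, with a median of -0.34. Among genes of at least 1 CPM, 6.5% fell, and their median was -0.01. MARS1, the methionyl-tRNA synthetase, had 146, 150 and 149 CPM with DMSO and 97.6, 104 and 99.5 CPM with Ibr (log2 FC -0.56 ± 0.09 SE, adjusted p = 1.46e-06). SHMT2, which makes glycine and one-carbon units from serine in mitochondria, had 314, 321 and 315 CPM with DMSO and 214, 228 and 225 CPM with Ibr (log2 FC -0.51 ± 0.1 SE, adjusted p = 5.34e-05). In both genes the groups were far apart relative to their spread. NARS1 for asparagine and VARS1 for valine fell with log2 FC of -0.49 ± 0.09 SE (adjusted p = 2.4e-05) and -0.46 ± 0.09 SE (adjusted p = 0.000203). XPOT, which exports tRNA from the nucleus, and PSAT1, an enzyme of serine synthesis, were the others that fell (log2 FC -0.34 and -0.33, adjusted p = 0.00488 and 0.00713). ATF4, the transcription factor that drives many of these genes, had a log2 FC of -0.15 (adjusted p = 0.528).

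Only 3 of 20 genes of cholesterol synthesis had a symbol, and 2 of them fell. ACAT2, a thiolase at the start of the pathway, had 255, 215 and 224 CPM with DMSO and 166, 156 and 163 CPM with Ibr (log2 FC -0.51 ± 0.09 SE, adjusted p = 1.92e-05). SQLE, the squalene epoxidase, had 764, 660 and 695 CPM with DMSO and 505, 501 and 546 CPM with Ibr (log2 FC -0.45 ± 0.1 SE, adjusted p = 0.000547). Neither had overlapping groups. SREBF2, the transcription factor that drives the pathway, had a log2 FC of -0.07 ± 0.09 SE (adjusted p = 0.736), and its groups overlapped.

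The list of ribosome and translation genes went the other way. This list was drawn up with earlier results known and holds only genes with a symbol. Of its 15 genes, 9 rose, none fell and 14 had a log2 FC above 0, with a median of 0.3. EEF1D, a subunit of elongation factor 1, had 820, 807 and 810 CPM with DMSO and 1130, 1100 and 1230 CPM with Ibr (log2 FC 0.5 ± 0.1 SE, adjusted p = 0.000129). RPL10A rose with a log2 FC of 0.44 ± 0.1 SE (adjusted p = 0.000607), and RPS12 with one of 0.39 ± 0.11 SE (adjusted p = 0.0137). Without replicate 3, RPL10A, RPS12 and RPS6 did not pass (adjusted p = 0.121, 0.272 and 0.109). Among the 104 genes of at least 1000 CPM outside the list, 48.1% rose, 1.92% fell and the median log2 FC was 0.32, whereas among all 2146 genes of at least 100 CPM 10.7% rose, 11.5% fell and the median was -0.07. The 7 list members of at least 1000 CPM had a median of 0.31 and the 8 below it one of 0.3. The part of level in the result was not tested.

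**Figure D3:**
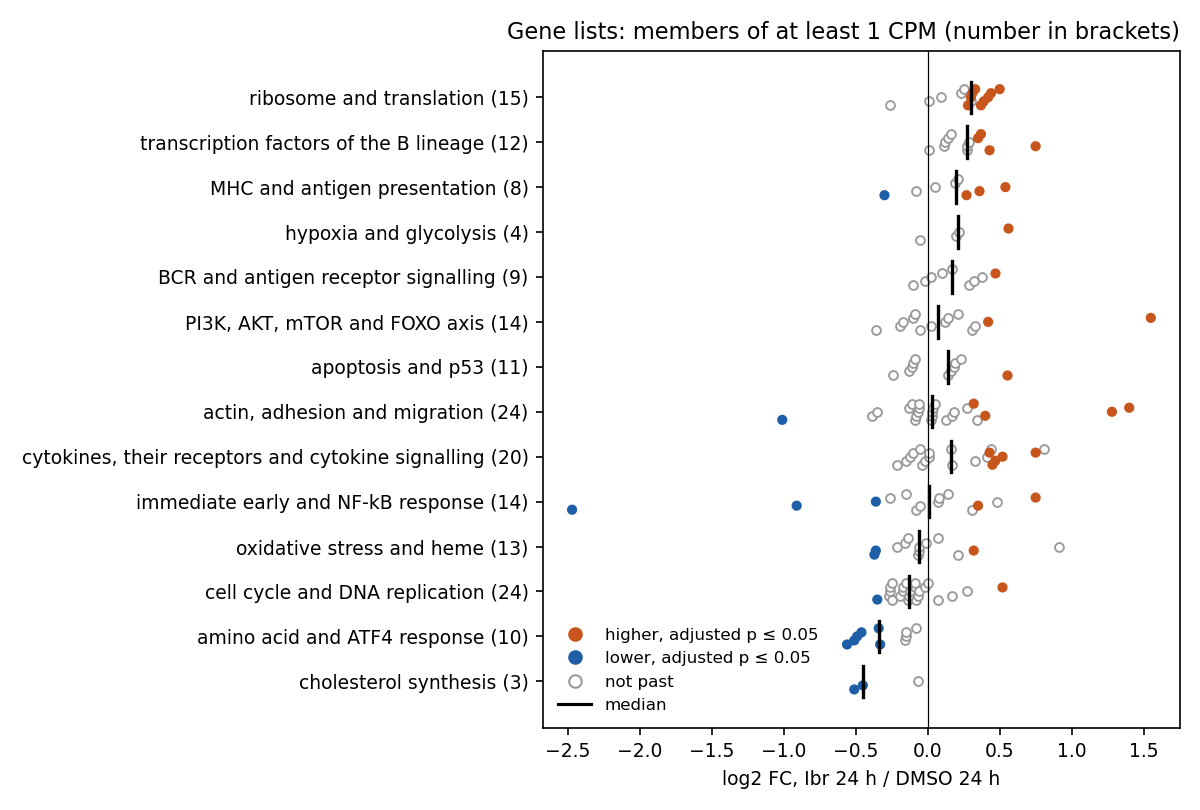
The log2 FC of Ibr over DMSO at 24 h for the members of 14 gene lists with at least 1 CPM, 1 point per gene, sorted by the median of all tested members of the list. Filled points passed an adjusted p of 0.05 (orange higher, blue lower), open points did not, and black bars are medians of the points shown. Amino acid and cholesterol genes lie to the left, ribosomal genes to the right, and most lists straddle 0.

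Cell cycle genes showed small differences. Of 32, 24 had a symbol, 1 rose, 1 fell, 22 did not pass and 20 had a log2 FC below 0, with a median of -0.13. CCND3, the D cyclin of B cells, had 319, 356 and 369 CPM with DMSO and 496, 514 and 483 CPM with Ibr (log2 FC 0.52 ± 0.09 SE, adjusted p = 6.34e-06). TONSL, which works in the repair of stalled replication forks, fell from 149 ± 9 to 117 ± 13.8 CPM (SD, n = 3 each, log2 FC -0.35 ± 0.1 SE, adjusted p = 0.00944). Without replicate 3, TONSL had an adjusted p of 0.286. CCND3 rose by more than any other member of this list, none of which had a log2 FC above 0.27. CDC23, a subunit of the anaphase-promoting complex, and LMNB1, a nuclear lamin, had log2 FC of -0.27 ± 0.09 SE and -0.25 ± 0.09 SE, with adjusted p of 0.0546 and 0.0594. Both passed with DESeq2 (adjusted p = 0.00642 and 0.00195) and with filterByExpr (adjusted p = 0.0203 and 0.0176), and CDC23 also with no replicate block (adjusted p = 0.0474).

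In the 12 paired genes of apoptosis and the p53 response, 1 rose and none fell, with a median log2 FC of 0.03. The pore-forming protein GSDMD had 67.6, 66.9 and 67.4 CPM with DMSO and 99.4, 95.6 and 102 CPM with Ibr (log2 FC 0.55 ± 0.1 SE, adjusted p = 2.52e-05), without overlap. BCL2, the inhibitor of apoptosis, had a log2 FC of 0.23 ± 0.12 SE (adjusted p = 0.274). BAK1, which opens the mitochondrial membrane, had one of -0.24 ± 0.09 SE (adjusted p = 0.0928, and 0.0456 with DESeq2), and MDM2, the ligase for p53, one of 0.16 ± 0.09 SE (adjusted p = 0.347).

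In the list of B-lineage transcription factors and cofactors, 13 of 22 genes had a symbol. Of these, 4 rose, none fell, 9 did not pass and 13 had a log2 FC above 0, with a median of 0.27. Some lay close to 0 or were poorly measured: STAT6 had a log2 FC of 0.01 ± 0.09 SE, and ETV7, at 0 to 5 reads, one of 0.19 ± 0.84 SE. PAX5, EBF1, BCL6 and IRF4 could not be paired. Beside IRF1 and MYC, IRF5 had 111, 112 and 116 CPM with DMSO and 155, 149 and 151 CPM with Ibr (log2 FC 0.43 ± 0.09 SE, adjusted p = 0.000311). The corepressor TLE1 rose with a log2 FC of 0.37 ± 0.1 SE (adjusted p = 0.00591), but not without replicate 2 or 3 (adjusted p = 0.107 and 0.147). MYC was lost without replicate 1, as given above. MYB, a factor of blood progenitors, had 30.2 ± 1.48 CPM with DMSO and 32.8 ± 2.67 CPM with Ibr (SD, n = 3 each, adjusted p = 0.656), and its groups overlapped.

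Among 9 paired genes of antigen presentation, 3 rose and 1 fell, with a median log2 FC of 0.21. DLA-DOA, which regulates peptide loading of class II molecules, had 49.6, 44.7 and 45.6 CPM with DMSO and 66.4, 61.6 and 75.8 CPM with Ibr (log2 FC 0.54 ± 0.11 SE, adjusted p = 0.000177). DLA-DRA, a class II chain, had 2700, 2670 and 2630 CPM with DMSO and 3260, 3260 and 3740 CPM with Ibr (log2 FC 0.36 ± 0.11 SE, adjusted p = 0.0217). The peptide transporter TAP1 rose (log2 FC 0.27 ± 0.09 SE, adjusted p = 0.0395), and the chaperone CANX fell (log2 FC -0.3 ± 0.09 SE, adjusted p = 0.024). Each of these calls was lost when some replicate was left out. The highest adjusted p was 0.083 for DLA-DOA, 0.251 for DLA-DRA and 0.437 for TAP1, all without replicate 3, and 0.135 for CANX without replicate 1, and DLA-DRA had 0.0553 with all 36 libraries. DLA-DOA and DLA-DRA are also in the list of B-lineage markers given above. Of 29 paired cytokine and cytokine signalling genes, 5 rose and none fell, with a median log2 FC of 0.01: beside IRF1, TNFRSF13C and IRF5 these were DDX58, the viral RNA sensor RIG-I (log2 FC 0.52 ± 0.17 SE, adjusted p = 0.0382), and the adaptor SLA (log2 FC 0.45, adjusted p = 0.0393). DDX58 did not pass with no replicate block (adjusted p = 0.0523) or without replicate 2 or 3 (adjusted p = 0.252 and 0.261).

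Oxidative stress genes were split. Of 13 paired genes, 1 rose, 2 fell and the median log2 FC was -0.06. TXNRD1, the cytosolic thioredoxin reductase, had 395, 386 and 367 CPM with DMSO and 289, 300 and 301 CPM with Ibr (log2 FC -0.37 ± 0.09 SE, adjusted p = 0.00124), and OXR1 rose (log2 FC 0.32 ± 0.1 SE, adjusted p = 0.0224, and 0.0784 and 0.292 without replicates 2 and 3). HMOX1, the heme oxygenase, had 3.26, 3.7 and 4.1 CPM with DMSO and 7.69, 6.34 and 6.77 CPM with Ibr. Its groups did not overlap, but with a log2 FC of 0.91 ± 0.42 SE it did not pass the test (adjusted p = 0.226). HMOX1 passed with DESeq2 (adjusted p = 0.0438) and without replicate 1 or 3 (adjusted p = 0.00531 and 0.000822). Of 6 paired genes of hypoxia and glycolysis, PFKFB2, which makes the activator of glycolysis fructose bisphosphate, rose (log2 FC 0.56 ± 0.18 SE, adjusted p = 0.0364), while PLIN2 (0.22 ± 0.09 SE, adjusted p = 0.109), P4HA2 (0.2 ± 0.27 SE, adjusted p = 0.771) and HIF1AN (-0.05 ± 0.12 SE, adjusted p = 0.934) did not pass. PFKFB2 did not pass with all 36 libraries (adjusted p = 0.0575), with no replicate block (0.0522) or without replicate 1 or 2 (0.0664 and 0.402), and PLIN2 passed with DESeq2 (adjusted p = 0.00464). NDRG1 had 0 to 2 reads in each of the 6 libraries. DSE, an epimerase of dermatan sulfate synthesis, had 351, 373 and 355 CPM with DMSO and 451, 480 and 473 CPM with Ibr (log2 FC 0.38 ± 0.09 SE, adjusted p = 0.00119, and 0.137 without replicate 3).

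The 24 h response was followed into the 48 h and 72 h libraries, which have DMSO controls of their own. Of the 210 DEGs, 193 (91.9%) had the same sign at 48 h, against 72% of genes of at least 1 CPM, and 147 (70%) at 72 h, against 48.6%. These sets are not alike, as the DEGs were chosen for a large log2 FC and 156 of them have at least 1 CPM. The median log2 FC of the 163 higher DEGs was 1.45 at 24 h, 1.14 at 48 h and 0.6 at 72 h, and that of the 47 lower DEGs -1.38, -1.19 and -0.58. Since the genes were chosen for their size at 24 h, smaller values at other times are also what such a choice gives. At 48 h, 106 of the genes were DEGs in the same direction, which is 50.5% of the 24 h DEGs and 28.3% of the 48 h DEGs (2% of genes tested were DEGs then). At 72 h these were 70 genes, or 33.3% of the 24 h DEGs and 9.4% of the 72 h DEGs (3.99%). Another 12 of the higher DEGs were DEGs in the lower direction at 72 h (2.69% of genes tested), and 1 of the lower DEGs was higher then (1.3%). The Ibr 72 h group holds 2 libraries, as the third was left out in the study and here.

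The test of the difference between the effects itself gave 44 genes (0.236%) for 48 h against 24 h, 10 of them among the 24 h DEGs, and 732 genes (3.92%) for 72 h against 24 h, 71 of them among the 24 h DEGs. In 58 of the 71, a gene higher at 24 h had a smaller or opposite log2 FC at 72 h. In 5, a gene higher at 24 h had a larger one. Of all genes tested, 2.83% had a difference below 0 past the limits. The DEGs were chosen for their values at 24 h, and those values enter the difference. Such a choice favours differences toward 0, so the share over all genes is not a like background. PLXNB2 was one of the 58. Its log2 FC was 1.27 at 24 h, 0.23 at 48 h and -0.8 at 72 h, and its level was 9.12, 12 and 20.8 CPM in the DMSO groups and 22, 14.1 and 11.7 CPM in the Ibr groups. The level was thus higher at later times in the controls and lower at later times with Ibr. TMEM71 went from a log2 FC of 1.74 to 1.11 and -0.08. NEBL went the other way, with 1.28, 1.51 and 2.71, and its level was 0.854 ± 0.107 CPM (SD, n = 3) in DMSO and 5.89 ± 0.736 CPM (SD, n = 2) in Ibr at 72 h.

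EGR1 was lower with Ibr at each time, with log2 FC of -2.47 ± 0.56, -1.69 ± 0.53 and -2.28 ± 0.62 SE (adjusted p = 0.00537, 0.0424 and 0.0111). At 48 h its groups overlapped, with 84 to 283 CPM in DMSO and 16.5 to 110 CPM in Ibr. At 72 h DMSO had 239 to 308 CPM, and the 2 Ibr libraries had 58.6 and 69.8 CPM. NAB2 had log2 FC of -0.91, -1.47 and -1.89, and its difference between 72 h and 24 h had an adjusted p of 0.000173. Its level was 16.6, 24.5 and 42.5 CPM in the DMSO groups and 8.8, 8.79 and 10.8 CPM in the Ibr groups. The level thus differed between times mainly in the controls. GOLM1 rose at each time (log2 FC 1.09, 1.09 and 1.62). MARS1 was lower at each time, with -0.56, -0.38 and -0.39, whereas VARS1 had -0.46, -0.15 and 0.85. The VARS1 level with DMSO was 460 ± 14.5 CPM at 24 h and 242 ± 20.2 CPM at 72 h (SD, n = 3 each), and with Ibr 335 ± 17.9 CPM (SD, n = 3) and 439 ± 5.04 CPM (SD, n = 2). ACAT2 was lowest relative to DMSO at 48 h, with a log2 FC of -1.46 against -0.51 at 24 h (adjusted p of the difference = 1.87e-07). Between 24 h and 48 h its level went from 231 to 524 CPM with DMSO and from 162 to 191 CPM with Ibr.

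**Figure D4:**
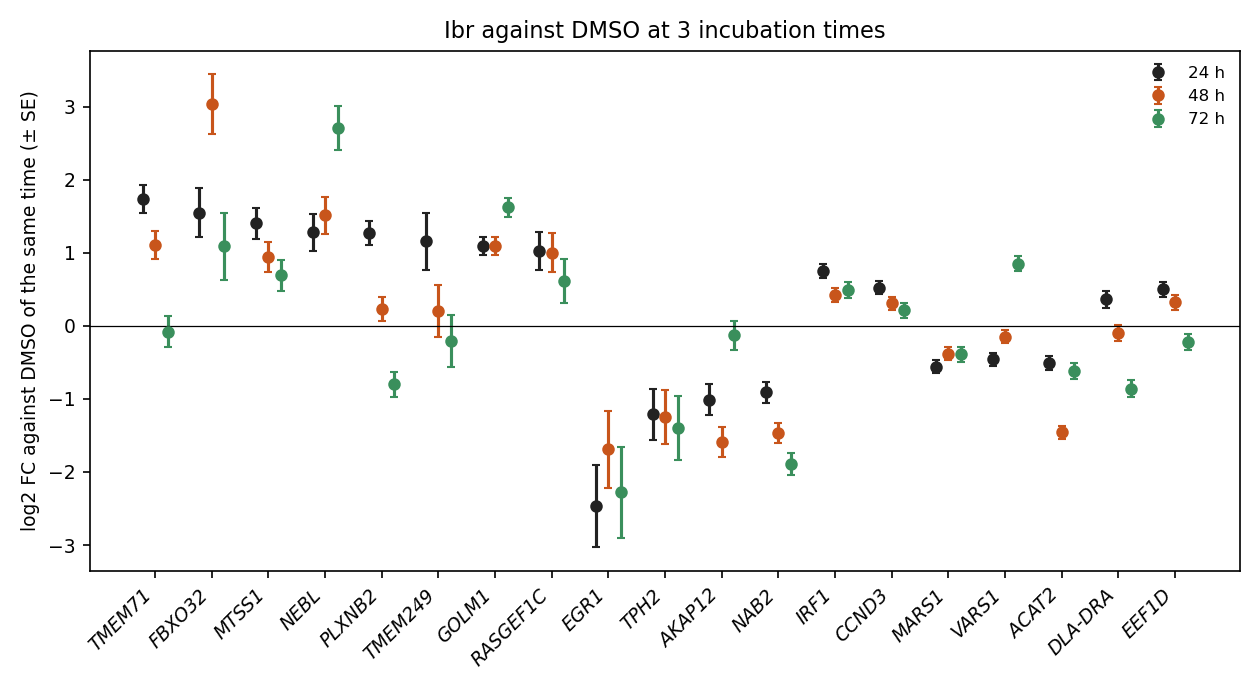
The log2 FC of Ibr over DMSO of the same time (± SE) at 24 h, 48 h and 72 h for the 11 DEGs with a symbol and 8 further named genes. EGR1, TPH2 and GOLM1 keep their direction, NEBL and NAB2 move further from 0, and PLXNB2, VARS1 and DLA-DRA change sign by 72 h.

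Finally, Ibr was set beside AS at 24 h. The AS and Ibr + AS groups are compared with the same DMSO libraries as Ibr, so values against DMSO are given side by side only. AS alone gave 37 DEGs (0.198%) and Ibr + AS 1542 (8.26%). For EGR1, the log2 FC was -2.47 with Ibr, 0.01 with AS and -2.7 with Ibr + AS. EGR1 levels ranged from 98.6 to 130 CPM in the AS libraries and from 11.2 to 40.1 CPM in the Ibr + AS libraries. For TMEM71 the values were 1.74, 0.49 and 3.53, for MTSS1 1.4, 0.73 and 3.87, and for NEBL 1.28, -0.22 and 0.33. NEBL thus had a lower value with Ibr + AS than with Ibr, a difference that was not tested.

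The direct test of Ibr against AS libraries found 39 genes past the limits (0.209%), 29 higher and 10 lower with Ibr. That number was 22 without replicate 2, 74 when only the compared groups were fitted and 2 with glmTreat, which tests against the fold limit itself. EGR1 was lower with Ibr than with AS (log2 FC -2.48 ± 0.56 SE, adjusted p = 0.0366), and TMEM71 and NEBL were higher (log2 FC 1.24 ± 0.18 and 1.5 ± 0.26 SE, adjusted p = 0.000321 and 0.000102). NAB2 and TXNRD1 were lower below the fold limit (log2 FC -0.65 and -0.42, adjusted p = 0.00544 and 0.00188). ENSCAFG00000006264 had a log2 FC of -2.05 ± 0.19 SE (adjusted p = 5.96e-15). For RASGEF1C the difference was -0.1 ± 0.23 SE (adjusted p = 1), for PLXNB2 0.35 ± 0.15 SE (adjusted p = 0.521) and for MARS1 -0.11 ± 0.09 SE (adjusted p = 0.948), which does not show that the 2 inhibitors act alike on these genes.

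**Figure D5:**
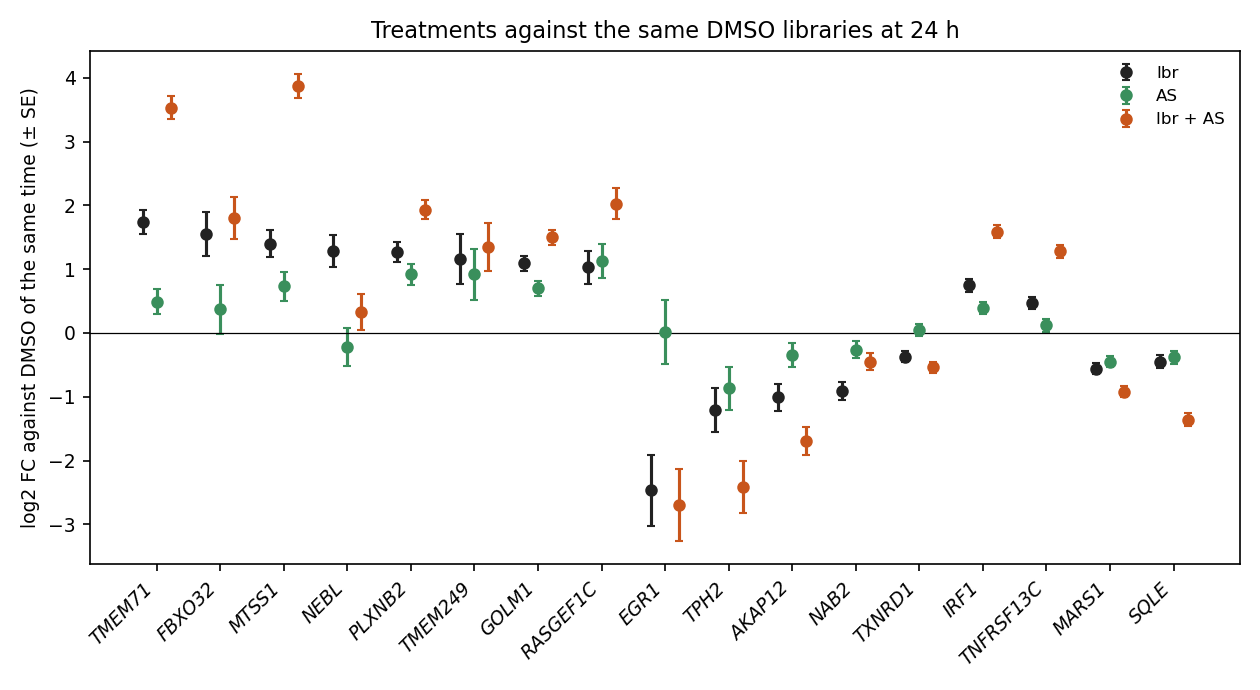
The log2 FC (± SE) of Ibr, AS and Ibr + AS at 24 h, each against the same 3 DMSO libraries, for the 11 DEGs with a symbol and 6 further named genes. With AS, EGR1 lies at 0.01, NEBL at -0.22 and TMEM71 at 0.49, whereas RASGEF1C lies close to its Ibr value.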

How the data were processed

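Poly-A RNA was sequenced as single-end reads. The authors pooled lanes, mapped to CanFam3.1 with STAR 2.7.5a and deposited raw counts per Ensembl gene, without normalization. Replicates 1, 2 and 3 are passages 121, 126 and 128. For 1 control library, DMSO 24 h replicate 3, title and passage field differ (126 against 128), and the field was followed.

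Counts were analysed with edgeR 4.0.16 (R 4.3.3), with TMM factors, genes with at least 2 reads over 35 libraries (without Ibr 72 h replicate 3, which the study had dropped), robust quasi-likelihood fits and the terms passage and group. Single p-values are adjusted over all 18670 genes. Passage was kept as a replicate block: after removal of group means, the Ibr and DMSO libraries at 24 h correlated with r of 0.193, 0.144 and 0.116 in passages 121, 126 and 128. By the study's methods each replicate used cells of another passage of the 1 line. With passage and group as terms, p-values rest on the spread left after both, estimated over the 35 libraries. They do not measure the spread between passages or between tumours. Same-group libraries differed by more than sampling noise (chi-square per degree of freedom 1.93 to 9.35). The sample numbers in the headers restart once, which was taken as a change of sequencing run, though no label says so. At each time, the Ibr and DMSO libraries of a passage lie on the same side of the restart. For passage 126, the 24 h and 72 h libraries lie on different sides, so the comparison of these times crosses it there. Counting intervals and floors cover counting error only.

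Symbols came from the given parts of the study's supplementary tables (1068 identifiers, 1059 of these symbols also in RefSeq UU_Cfam_GSD_1.0). Named genes are DEGs with a symbol, at least 1 CPM and one direction in 3 passages, up to 4 members of each list with the lowest p, 10 fixed names, and the 2 highest and 2 lowest DEGs without a symbol. The comparison, lists and names were chosen with earlier results of these data known. IL2RB, IL4, TCF7, CD226, IFNG, LYZ, NCF4, LGALS1, TREM2, MPIG6B, TNF, TNFAIP3, IER3, KLF10, TRIB1, INPP5D, XPOT, PSAT1, ATF4 and SLA were named after their values were seen. Alternatives were DESeq2 1.42.0, RLE factors, filterByExpr, all 36 libraries, no block, fewer libraries, glmTreat, a run term and each passage left out. The procedure was also run on simulated counts. These held no passage effect and changed only in Ibr 24 h, in genes of at least 1 CPM and by more than the fold limit. The simulation therefore says nothing on smaller changes.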

Additional observations from a re-analysis of the deposited data

Results flagged for a closer look

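The effect of Ibr at a later time differed from that at 24 h, by the edgeR test of the difference, in 9 of the 63 named genes at an adjusted p of at most 0.05 and an absolute difference above 1 on the log2 scale. Over all genes tested, 0.236% passed these limits for 48 h and 3.92% for 72 h. Most named genes were chosen by their values at 24 h, which enter the difference, so these shares cannot be compared directly. At 48 h, PLXNB2 (difference -1.04 ± 0.22 SE, adjusted p = 0.00692) and P4HA2 (-2 ± 0.35 SE, adjusted p = 0.000225) had lower values than at 24 h. P4HA2, a collagen prolyl hydroxylase, had 2.11 ± 0.626 CPM in DMSO at 24 h and 10.2 ± 1.92 CPM at 48 h, but 2.43 ± 0.532 and 2.94 ± 0.228 CPM with Ibr (SD, n = 3 each). At 72 h, lower values than at 24 h were found for PLXNB2 (-2.07 ± 0.23 SE, adjusted p = 1.7e-09), TMEM71 (-1.81 ± 0.29 SE, adjusted p = 4.63e-05), DLA-DRA (-1.21 ± 0.16 SE, adjusted p = 3.88e-08), DLA-DOA (-1.09 ± 0.16 SE, adjusted p = 3.46e-07) and DDX58 (-1.05 ± 0.27 SE, adjusted p = 0.00287). Higher values were found for NEBL (1.43 ± 0.4 SE, adjusted p = 0.00683), VARS1 (1.31 ± 0.14 SE, adjusted p = 2.36e-12) and PFKFB2 (1.16 ± 0.28 SE, adjusted p = 0.00126). In DMSO, the DLA-DRA level was 2670 ± 35.7 CPM at 24 h and 4450 ± 291 CPM at 72 h (SD, n = 3 each).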

How the results depend on the processing

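Groups of 3 libraries and symbols for 1068 genes limit what can be seen: 23 DEGs rest on a group with at most 3 reads per library. The 210 DEGs became 197 with DESeq2 (184 shared), 192 with no replicate block (185 shared), 250 with the 6 libraries alone (206 shared) and 16 (14 higher, 2 lower) with glmTreat, which tests against the fold limit itself. Under glmTreat, 0 genes (0 higher, 0 lower) remained for 48 h minus 24 h, with 160 at an unadjusted p under 0.05 against 47 calls by DESeq2, 57 (7 higher, 50 lower) for 72 h minus 24 h and 2 (1 higher, 1 lower) against AS. Fitting only the groups compared gave 71 (5 higher, 66 lower) for 48 h minus 24 h and 74 (53 higher, 21 lower) against AS. The higher genes for 48 h minus 24 h numbered 1 with filterByExpr, with all 36 libraries and with no replicate block, where the lower genes against AS numbered 4. Leaving out a replicate (passage) gave 168 to 226 DEGs (125 to 172 higher, 38 to 54 lower), with 156, 144 and 138 of the 210 shared without replicates 1, 2 and 3, 42 to 79 genes for 48 h minus 24 h (4 to 7 higher, 37 to 72 lower), 475 to 785 for 72 h minus 24 h (134 to 251 higher, 341 to 555 lower) and 22 to 52 against AS (16 to 36 higher, 6 to 16 lower). Without replicate 2, 399 of the 732 genes for 72 h minus 24 h were shared. Without replicate 1 or 2, the 1 Ibr 72 h library left is assumed to vary like the other groups. Of the 45 named genes past an adjusted p of 0.05, 24 stayed past it in every setting but glmTreat, no direction turned, 11 of 18 named genes not past it passed in some setting, and the causes were not tested.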

Other observations

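Further gene groups were formed after their values were seen, so their counts are descriptions, and CANX of the chaperones is also in the antigen presentation list. Of 16 paired ribosome assembly and nucleolar factors, 6 fell, 1 rose, 9 did not pass and 14 had a log2 FC below 0 (median -0.27). Among all genes of at least 1 CPM, 8.93% rose and 6.5% fell. Since the genes of both groups were picked with their values known, these shares are not a like background. PWP1 fell from 105 ± 1.46 to 70.1 ± 3.86 CPM (SD, n = 3 each, log2 FC -0.59 ± 0.09 SE, adjusted p = 1.2e-06) and RBM28 from 48.3 ± 1.38 to 34.5 ± 3.15 CPM (SD, n = 3 each, log2 FC -0.48 ± 0.1 SE, adjusted p = 0.000326). BYSL was the one that rose (log2 FC 0.31 ± 0.09 SE, adjusted p = 0.0143).

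Of 14 paired chaperones and mitochondrial import and membrane proteins, 7 fell, 7 did not pass and none rose (median log2 FC -0.26). HSPA9, the mitochondrial HSP70, fell from 543 ± 10.9 to 368 ± 18.4 CPM (SD, n = 3 each, log2 FC -0.56 ± 0.09 SE, adjusted p = 9.43e-07). HSPA4 fell from 413 ± 5.48 to 301 ± 1.52 CPM (SD, n = 3 each, log2 FC -0.46 ± 0.09 SE, adjusted p = 4.94e-05), and TCP1 and CCT2, subunits of the TRiC chaperonin, had log2 FC of -0.3 and -0.28 (adjusted p = 0.0179 and 0.028).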
